A study of Prunus sibirica with 30 samples.

Results

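XTH9, AGP31 and an Olee1-like protein were taken as cell wall and wall-linked genes among the abundant transcripts of flowers of Siberian apricot (Prunus sibirica) held in frost. XTH9 (xyloglucan endotransglucosylase/hydrolase protein 9) and AGP31 (non-classical arabinogalactan protein 31) were taken by their gene identifiers and the Olee1-like protein by its name, which gave 3 genes of the 143 complete genes in the table. A search of all names for wall enzymes and wall proteins (expansins, pectin enzymes, extensins, cellulose synthases and the like) found these same 3 genes and no further one. The search list was chosen with earlier results of these data known. The match therefore does not show that the table holds no other wall gene. Genes below a mean level of 594 FPKM (a read density: fragments for each kilobase of a gene, divided by a measure of library size) were not analysed here.

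RNA was sequenced from 2 clones at bloom. Clone 453 (CR) is described by the labels as strongly frost resistant and clone 371 (NC) as weakly so. Both were sampled at the start (0 h) and after 15 min, 30 min, 1 h and 2 h at -4 °C, with 3 libraries for each of the 10 groups, 30 libraries in all. No samples of matching times kept out of the frost were among these groups, so the effect of cold and that of elapsed time and handling cannot be told apart, and each degree of resistance is represented by 1 clone. The labels name the pistil, while the protocol speaks of flowers and flower buds. A list of pistil markers (S-ribonucleases, stigma and transmitting tissue proteins and others) matched 0 of the 143 genes, so the tissue label could not be checked against them.

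The plant cell wall is a mesh of cellulose microfibrils tied together by xyloglucan, embedded in pectin and laced with glycoproteins. XTH enzymes cut xyloglucan chains and rejoin the ends, which lets a wall be remodelled while the cell grows. In Arabidopsis XTH9 is known from shoot apices and flower buds. Arabinogalactan proteins are secreted glycoproteins with dense sugar side chains, and Arabidopsis AGP31, found mainly in vascular tissue, carries a long histidine- and proline-rich stretch ahead of a cysteine-rich end that binds wall polysaccharides. Ole e 1 is the main pollen allergen of olive, and its family of small secreted proteins includes tomato LAT52, which acts in pollen tubes. Flower walls are of interest in frost because ice that forms between cells draws out water and deforms the wall.

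The 3 genes lie on different chromosomes of the deposited table, whose genome build the sources used here do not give. XTH9 (PaF106G0300011943.01) runs from 18902065 to 18904741 on the plus strand of chromosome 3, with a gene length of 1266 bases and the glycosyl hydrolase family 16 domain of xyloglucan enzymes. AGP31 (PaF106G0400017774.01) runs from 3201270 to 3202567 on the minus strand of chromosome 4, with 1177 bases. The Olee1-like gene (PaF106G0100005903.01) runs from 37438777 to 37440396 on the plus strand of chromosome 1, with 887 bases. AGP31 and the Olee1-like gene carry the same annotated domain, the Ole e 1-like domain of pollen proteins, and they were the 2 genes of the 143 that do. Exon and untranslated-region positions were not used here. Gene names come from the Swiss-Prot matches that the deposited annotation gives, and each of these names occurred once in the table.

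Averaged over all libraries AGP31 was the most abundant of the 3, with 1115 FPKM and place 41 of 143 by level, ahead of XTH9 with 776 FPKM and place 89 and the Olee1-like gene with 663 FPKM and place 117. Each member value rested on 6275 to 32614 reads, for a counting error of 1.26% or less. Nothing in the labels ties the replicates to separate trees. The p-values rest on the spread of libraries within groups, pooled over all 10 groups, and that spread may be technical. FPKM are shares of a total, and in several comparisons most genes shifted to the same side: the median of the 143 genes, 69 of them ribosomal protein genes, ranged from 544 to 1285 FPKM between libraries. Levels are therefore given both as deposited and as a percentage of the library's own median, which is called the relative level. In such bulk tissue, fewer cells of a type and less RNA per cell cannot be told apart. Of the 30 libraries, 2 stood apart from their group. CR 0 h replicate 1 had a median of 1285 FPKM against 954 and 1059 in the other replicates, and NC 2 h replicate 1 had 749 against 544 and 555.

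**Figure D1:**
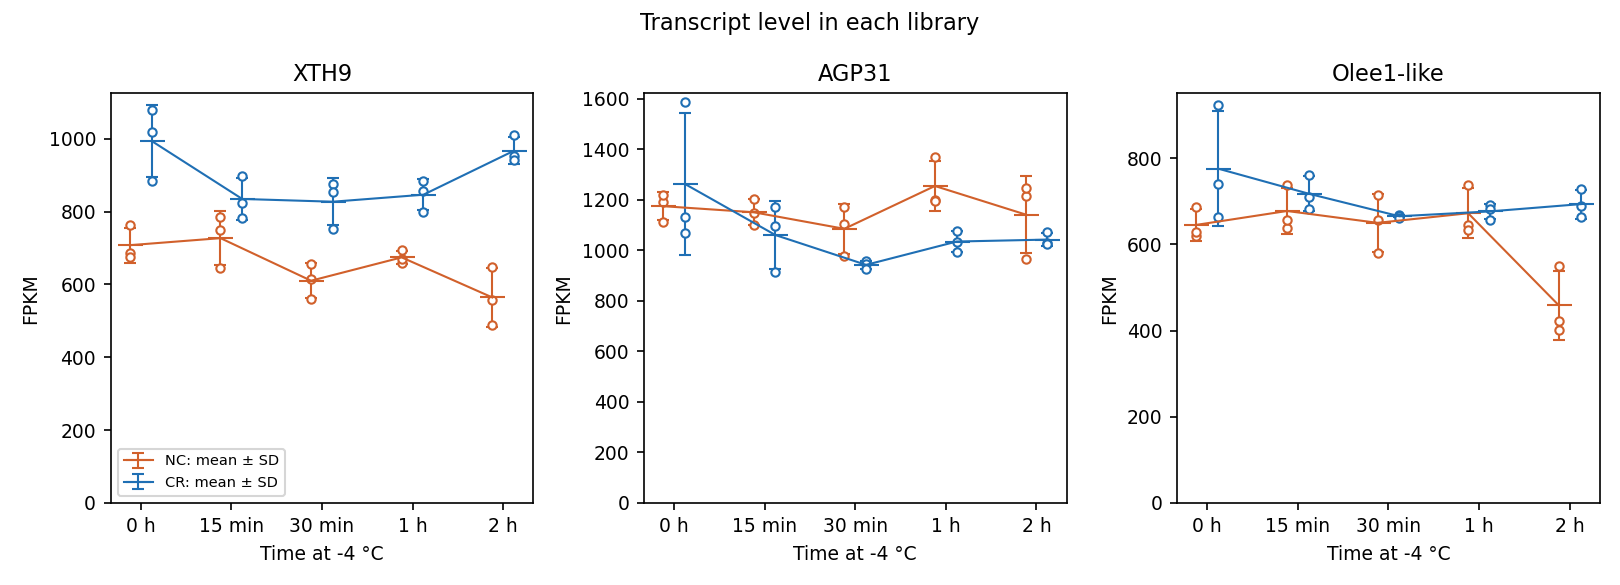
FPKM (vertical axis, from 0) of XTH9, AGP31 and the Olee1-like gene against time at -4 °C, with open circles for libraries and bars for the mean ± SD of 3 libraries, NC in orange and CR in blue. Over all times XTH9 ran from 753 to 1079 FPKM in CR and from 488 to 786 in NC. The AGP31 libraries of CR lay below those of NC at 30 min and 1 h, and overlapped with them at the other times. The Olee1-like gene was at its lowest in NC at 2 h, with 402 to 551 FPKM.

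XTH9, the wall-remodelling enzyme, was higher in CR than in NC, on average over the 5 times by 0.45 on the log2 scale (SE 0.048, limma adjusted p = 1.68e-09), a fold of 1.36. Most of the abundant genes were higher in CR by a similar amount: 81.8% of the 143 genes were called higher, the median difference was 0.42, and XTH9 took place 67 in the order of differences. Relative to the library median the difference was 0.07 (SE 0.037, adjusted p = 0.0875). When the median was taken outside the ribosomal protein genes it was 0.22 (adjusted p = 6.44e-06), so whether XTH9 passed the test beyond the general shift depended on which genes set the reference.

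In NC, the 3 libraries had 686, 763 and 676 FPKM of XTH9 at 0 h, 751, 786 and 645 at 15 min, and 561, 657 and 614 at 30 min. At 1 h they had 659, 669.6 and 695 FPKM, and at 2 h 647, 559 and 488. The libraries at 30 min and at 2 h all lay below those at 0 h, as in 6.99% and 46.9% of all genes, while 15 min and 1 h overlapped with 0 h. The change at 30 min did not pass the test as deposited (-0.21, limma adjusted p = 0.362). With the median outside the ribosomal genes it passed (-0.26, adjusted p = 0.0392). In CR, XTH9 stood at 1079, 884 and 1020.2 FPKM at 0 h, 897, 783 and 825 at 15 min, and 753, 876 and 854 at 30 min. It stood at 884, 857 and 799.9 FPKM at 1 h and 1009.6, 952 and 941 at 2 h. Every CR mean, from 827 ± 65.4 (SD, n = 3) at 30 min to 994 ± 99.96 at 0 h, was above every NC mean, which ran from 564 ± 80.0 at 2 h to 727 ± 73.3 at 15 min.

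At single times the XTH9 libraries of CR all lay above those of NC at 0 h, 30 min, 1 h and 2 h, and overlapped at 15 min. Of all genes 69.2%, 46.9%, 65.7% and 84.6% lay apart in this way at those 4 times. The differences were 0.49 at 0 h (SE 0.108, limma adjusted p = 0.000232), 0.44 at 30 min (adjusted p = 0.00217), 0.33 at 1 h (adjusted p = 0.0182) and 0.79 at 2 h (adjusted p = 2.06e-07). These 4 calls are to be read against 70.6%, 39.9%, 41.3% and 84.6% of all genes called higher in CR at the same times. At 15 min the difference was 0.20 (adjusted p = 0.179). There 0 of the 3 genes were called, also with voom and at an unadjusted p under 0.05, against 14.7% of all genes in either direction. The relative difference of XTH9 at 0 h was -0.03 and at 2 h 0.05, neither past the test, and at 30 min it was 0.21 (adjusted p = 0.0463, with 23.8% of all genes relatively higher). That call passed in 2 of 6 fits that left out 1 library, and was lost without replicate 1 (adjusted p = 0.226) or 2 (0.0529) of NC at 30 min or replicate 2 (0.122) or 3 (0.105) of CR at 30 min. With the median outside the ribosomal genes it was 0.12 at 0 h (adjusted p = 0.206), 0.37 at 30 min (adjusted p = 0.000529) and 0.34 at 2 h (adjusted p = 0.000701). The call at 1 h was lost without NC 1 h replicate 1 (adjusted p = 0.0567) or CR 1 h replicate 1 (adjusted p = 0.0746).

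Within NC, XTH9 fell by 2 h, by a log2 change of -0.33 from 0 h (SE 0.108, limma adjusted p = 0.00941), from 708 ± 47.6 to 564 ± 80.0 FPKM. Over all genes the median change was -0.39 and 62.9% fell, and the relative change of XTH9 was -0.01 (adjusted p = 0.921). With the median outside the ribosomal genes it was -0.16 (adjusted p = 0.0934). The change from 1 h to 2 h was -0.27 (adjusted p = 0.0276), where 69.9% of all genes fell by a median of -0.44, and relative to the median it was 0.09. That step passed in 2 of 6 fits that left out 1 library, and not without NC 1 h replicate 2 or 3 or NC 2 h replicate 2 or 3 (adjusted p from 0.0579 to 0.198). Without NC 2 h replicate 3 the change from 0 h was -0.23 (adjusted p = 0.0891), and without NC 2 h replicate 1 it was -0.44 (adjusted p = 0.00078). In CR, XTH9 was called lower at 15 min, with -0.25 (adjusted p = 0.0467, 60.1% of all genes lower), but with 0.11 relative to the median (adjusted p = 0.285). That call was lost when any of CR 0 h replicates 1 and 3 or CR 15 min replicates 2 and 3 was left out, for example with -0.19 (adjusted p = 0.201) without CR 0 h replicate 1. At 30 min the XTH9 libraries of CR all lay below those at 0 h, as in 38.5% of all genes, with a change that did not pass (-0.26, adjusted p = 0.0574). Those at 1 h also lay below, narrowly, with 883.7 FPKM at most against 884.0 at least at 0 h. This held in 31.5% of all genes, and the change did not pass (-0.23, adjusted p = 0.12). At 2 h the change from 0 h was -0.04 (adjusted p = 0.914).

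AGP31, the wall glycoprotein, was called lower in CR than in NC by a small margin as deposited, while most genes were higher in CR. NC libraries ranged from 965 to 1368 FPKM with a median of 1191, and CR libraries from 912 to 1587 with a median of 1032. The average difference of CR from NC was -0.13 (SE 0.058, limma adjusted p = 0.0397), one of the 6.99% of genes called lower in CR, at place 134 of 143. The call held in 14 of 30 fits that each left out 1 library, with adjusted p from 0.00297 to 0.0874, and it was -0.02 (adjusted p = 0.704) after a trend of the differences with gene length was removed. Relative to the library median the difference was -0.50 (SE 0.063, adjusted p = 1.43e-07), a fold of 0.705, and it passed in 30 of 30 such fits, from -0.56 to -0.48. Of all genes 28.0% were called lower on this scale. With the median taken outside the ribosomal protein genes the difference was -0.35 (adjusted p = 1.38e-05).

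The NC libraries had 1191, 1219 and 1113 FPKM of AGP31 at 0 h, 1203, 1148 and 1101 at 15 min, and 1103, 1173 and 978 at 30 min. They had 1201, 1194 and 1368 FPKM at 1 h and 965, 1213 and 1247 at 2 h. AGP31 thus stayed near its starting level in NC, with replicate 1 at 2 h below the other libraries. In CR it stood at 1587, 1131 and 1069 FPKM at 0 h, 1173, 1095 and 912 at 15 min, and 957, 945 and 925 at 30 min. It stood at 1077, 995 and 1032 FPKM at 1 h and 1031, 1072 and 1024 at 2 h. The CR libraries after 0 h all lay below 1587, the value of CR 0 h replicate 1, and the CR groups at 30 min and 1 h lay wholly below the NC groups of the same time, as in 8.39% and 8.39% of all genes.

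As a percentage of the library median, AGP31 in NC stood at 154 ± 4.36 (SD, n = 3) before frost, then at 152 ± 17.2 after 15 min, 143 ± 5.47 after 30 min, 161 ± 15.6 after 1 h and 192 ± 54.8 after 2 h. In CR it stood at 114 ± 11.9 before frost and 125 ± 15.3 after 15 min, and at the 3 later times its means lay between 103 ± 5.95 (2 h) and 111 ± 1.57 (1 h). The relative level was lower in CR at 0 h (-0.43, adjusted p = 0.00973), 30 min (-0.43, adjusted p = 0.0175), 1 h (-0.53, adjusted p = 0.00415) and 2 h (-0.85, adjusted p = 1.82e-05), while the deposited difference at 0 h had the other sign, 0.08 (adjusted p = 0.558). At 15 min the relative difference was -0.28 (adjusted p = 0.171). The calls at 0 h and 30 min were lost without replicate 3 of CR at that time (adjusted p = 0.0587 and 0.0506). The share of all genes that were relatively lower in CR was 27.3% before frost, 13.3% after 15 min, 16.1% after 30 min, 16.8% after 1 h and 23.8% after 2 h. With the median outside the ribosomal genes, the differences at 0 h (-0.28, adjusted p = 0.0831) and 30 min (-0.26, adjusted p = 0.106) did not pass and those at 1 h (-0.43) and 2 h (-0.57) did.

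**Figure D2:**
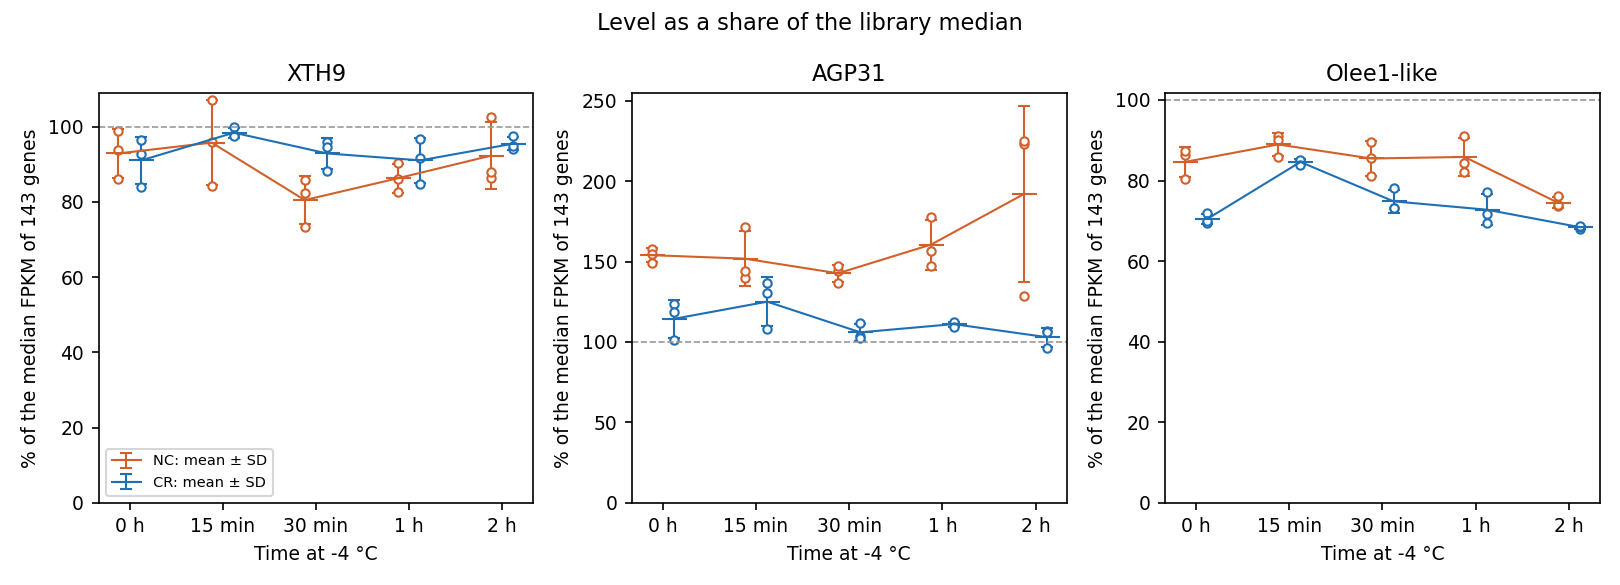
FPKM of each gene as a percentage of the median of the 143 genes in the same library (vertical axis, from 0, with a dashed line at 100), against time at -4 °C, with circles for libraries and bars for mean ± SD of 3, NC in orange and CR in blue. AGP31 ran from 129 to 225% in NC and 96.1 to 137% in CR, XTH9 stayed between 73.3 and 107% in both, and the Olee1-like gene in CR went from 70.5% at 0 h to 84.6% at 15 min and 68.4% at 2 h.

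AGP31 was not called lower in NC at 2 h, where most genes were. Its change from 0 h was -0.05 (SE 0.129, limma adjusted p = 0.731) where the median gene changed by -0.39, and it took place 25 of 143 in the order of changes. The relative change was 0.27 (adjusted p = 0.13), and it rested on how the 3 libraries were weighed. NC 2 h replicates 2 and 3 had AGP31 at 223 and 225% of their median, above all NC 0 h libraries, which ran from 149 to 158%. Replicate 1, the library that stood apart, had 129%, below them. Without that replicate the relative change was 0.54 (adjusted p = 0.000259). In CR, AGP31 was called lower at 30 min, by -0.40 (adjusted p = 0.0239), where 33.6% of all genes were lower and the median change was -0.30. Its libraries there all lay below those at 0 h, as in 38.5% of all genes. Relative to the library median the change was -0.11 (adjusted p = 0.68). With the median outside the ribosomal genes it was -0.15 (adjusted p = 0.558). The deposited call was lost without CR 0 h replicate 1 (-0.22, adjusted p = 0.283), CR 30 min replicate 1 (adjusted p = 0.0713) or CR 30 min replicate 3 (adjusted p = 0.0559).

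The Olee1-like gene had the largest fall of the 3 genes, in NC at 2 h. By F test it was the member whose level relative to the library median changed over time in both clones. The call in CR was not made with the median taken outside the ribosomal genes. In NC its libraries had 688, 619 and 629 FPKM at 0 h, 638, 738 and 657 at 15 min, and 656, 714 and 580.3 at 30 min. They had 646, 738 and 632 FPKM at 1 h and 551, 402 and 422 at 2 h. The first 4 times overlapped and the 3 libraries at 2 h all lay below the others, as in 46.9% of all genes against 0 h and 58.7% against 1 h. In CR the libraries had 923, 663 and 741 FPKM at 0 h, 761, 682 and 709 at 15 min, and 667, 667 and 662 at 30 min. They had 690.4, 683 and 656 FPKM at 1 h and 729, 688 and 663 at 2 h. Each later CR group overlapped with the 0 h group, and CR 0 h replicate 1 was the highest of all 30 libraries.

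In NC at 2 h the Olee1-like gene fell by 0.50 on the log2 scale (SE 0.118, limma adjusted p = 0.000956), from 645 ± 37.2 to 459 ± 80.7 FPKM, a fold of 0.705. The fall passed in 6 of 6 fits that left out 1 of the libraries compared, from -0.64 to -0.42. It exceeded the median change of -0.39, and relative to the library median it was -0.18 (SE 0.049, adjusted p = 0.00524), with 26.6% of all genes relatively lower. That relative change also passed in 6 of 6 such fits, and it was -0.33 (adjusted p = 0.000827) when the median was taken outside the ribosomal genes. From 1 h to 2 h the relative change was -0.20 (adjusted p = 0.00405, 20.3% of all genes relatively lower). Replicate 1 did not stand apart on this scale, since the libraries had 73.6, 73.9 and 76.1% of the library median at 2 h against 80.3 to 87.2% at 0 h. As deposited, the fall from 1 h was -0.56 (adjusted p = 0.000446).

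In CR the deposited level of the Olee1-like gene did not pass the test at any time against 0 h, with changes of -0.10 after 15 min, -0.21 after 30 min, -0.18 after 1 h and -0.15 after 2 h (limma adjusted p from 0.146 to 0.796). Relative to the library median it rose at 15 min by 0.26 (SE 0.049, adjusted p = 0.00136), with 84.8, 85.2 and 83.8% of the median against 71.8, 69.6 and 70.0% at 0 h, while the deposited value had the other sign. Of all genes 13.3% rose relatively at that time, and the Olee1-like gene took place 16 in the order of changes. From 15 min to 2 h it fell by 0.31 on the relative scale (adjusted p = 0.000335, 7.69% of all genes relatively lower), to 68.0, 68.6 and 68.7%. Both relative changes passed in 6 of 6 fits that left out 1 library, and with the median outside the ribosomal genes they were 0.21 (adjusted p = 0.0363) and -0.27 (adjusted p = 0.0225). XTH9 and AGP31 had relative changes of 0.11 and 0.13 at 15 min in CR, which did not pass.

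Between the clones the Olee1-like gene was higher in CR by 0.20 on average (SE 0.053, limma adjusted p = 0.000942), less than the median difference of 0.42 and with 81.8% of all genes higher, but lower by 0.18 relative to the library median (-0.18, SE 0.022, adjusted p = 1.29e-07), and without a call when the median was taken outside the ribosomal genes (-0.03, adjusted p = 0.454). As deposited, the libraries of the clones were apart at 2 h, with a difference of 0.61 (adjusted p = 2.81e-05) against a median of 0.84, where 84.6% of all genes were called higher and 84.6% lay apart, and overlapped at the other 4 times, with 0.04 at 30 min and 0.01 at 1 h. The difference at 0 h was 0.25 (adjusted p = 0.0527), and 0.12 without CR 0 h replicate 1. The relative difference was -0.26 at 0 h (adjusted p = 8.18e-05), -0.07 at 15 min (adjusted p = 0.315), -0.19 at 30 min, -0.24 at 1 h and -0.12 at 2 h (adjusted p = 0.0315). The last of these passed in 1 of 6 fits that left out 1 library, and with the median outside the ribosomal genes it was 0.16 (adjusted p = 0.0462), while those at 0 h, 30 min and 1 h did not pass with that reference (adjusted p = 0.184, 0.783 and 0.113).

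At the earlier times in NC no change of the 3 genes passed the test as deposited or relative to the library median. As deposited, 0 of the 3 were called against 0 h at 15 min, 30 min and 1 h, also with voom and at an unadjusted p under 0.05, where 2.1%, 0% and 0% of all genes were called in either direction. The deposited changes of the 3 lay between -0.21 for XTH9 at 30 min and 0.09 for AGP31 at 1 h. With the median outside the ribosomal genes XTH9 passed at 30 min (-0.26, limma adjusted p = 0.0392). In CR at 1 h, 0 of 3 were called with limma and with voom and 2 had an unadjusted p under 0.05, against 6.29% of all genes called. In CR at 2 h against 0 h, 0 of 3 were called by limma and by voom and 0 had an unadjusted p under 0.05, against 0% of all genes. From 15 min to 2 h in CR, 0 of 3 were called by limma or voom and 0 had an unadjusted p under 0.05, against 22.4% of all genes, although the XTH9 libraries at 2 h all lay above those at 15 min, as in 67.1% of all genes (0.21, adjusted p = 0.126).

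Over the whole time course, limma F tests called XTH9 (F 4.16, adjusted p = 0.0162) and the Olee1-like gene (F 8.47, adjusted p = 0.00112) in NC, where 69.9% of all genes were called, and not AGP31 (F 0.709, adjusted p = 0.614). In CR 0 of the 3 were called as deposited, with adjusted p from 0.0931 to 0.507 and 35% of all genes called. On the relative scale the Olee1-like gene was called in both clones, with F 7.80 in NC (adjusted p = 0.00228, 58.7% of all genes) and F 11.6 in CR (adjusted p = 0.0036, 16.1% of all genes). XTH9 and AGP31 were called in neither on that scale. With the median outside the ribosomal genes, the F test in CR did not call the Olee1-like gene. The F test of clone by time, which asks whether the courses differ between clones, called XTH9 and the Olee1-like gene as deposited (adjusted p = 0.0146 and 0.0121, 78.3% of all genes) and 0 of the 3 relative to the median (49% of all genes). On that scale the Olee1-like gene passed for clone by time at 15 min (0.19, adjusted p = 0.0311, 19.6% of all genes higher), where the deposited value had the other sign (-0.17, adjusted p = 0.434). It passed in 6 of 12 fits that left out 1 library, and not without NC 0 h replicate 1 or 3, NC 15 min replicate 3, CR 0 h replicate 2 or CR 15 min replicate 1 or 2 (adjusted p from 0.0502 to 0.0797). At single times 0 of the 3 genes passed for clone by time as deposited, with limma or with voom, and 1 had an unadjusted p under 0.05 at 2 h and 0 at the other times, against 42.7%, 9.09%, 0.699% and 16.8% of all genes called at 15 min, 30 min, 1 h and 2 h.

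**Figure D3:**
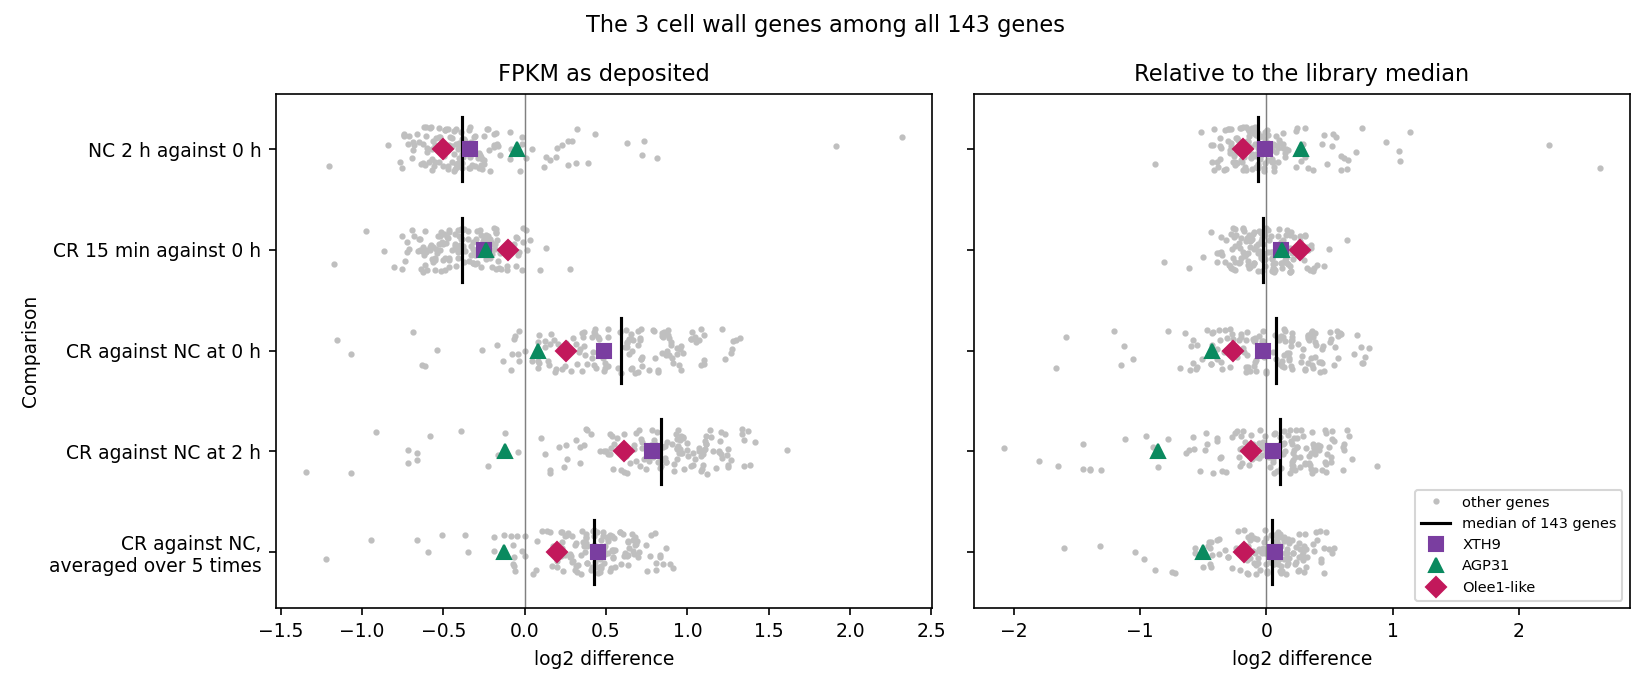
Log2 change of each of the 143 genes (grey points), with the black line at their median and the 3 named genes in colour, for 5 comparisons as deposited and relative to the library median. For CR against NC averaged over the times, the deposited median is 0.42 with XTH9 at 0.45, the Olee1-like gene at 0.20 (-0.18 on the relative scale) and AGP31 at -0.13, and in NC at 2 h the median is -0.39 with AGP31 at -0.05, XTH9 at -0.33 and the Olee1-like gene at -0.50.

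Ratios of 2 genes within a library do not depend on how the library was scaled, and that of AGP31 to XTH9 had separate ranges in the clones at each time. AGP31 over XTH9 ran from 1.46 to 2.56 in NC with a median of 1.74, and from 1.02 to 1.47 in CR with a median of 1.16. The libraries of the clones were apart at each of the 5 times, as in 17.7% of the 10153 pairs of genes in the table. The closest approach was at 15 min, where CR had 1.31, 1.40 and 1.11 and NC had 1.60, 1.46 and 1.71. At 2 h CR had 1.02, 1.13 and 1.09 and NC had 1.49, 2.17 and 2.56, the lowest of these in replicate 1.

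AGP31 over the Olee1-like gene, the pair with the shared domain, was 1.73, 1.97 and 1.77 in the NC libraries before frost and 1.75, 3.01 and 2.95 in those held for 2 h. The high ratios at 2 h were thus in replicates 2 and 3, and replicate 1 lay within the 0 h range. In CR the ratio ran from 1.29 to 1.72 over all times. The Olee1-like gene over XTH9 ran from 0.720 to 1.17 in NC and from 0.705 to 0.886 in CR.

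**Figure D4:**
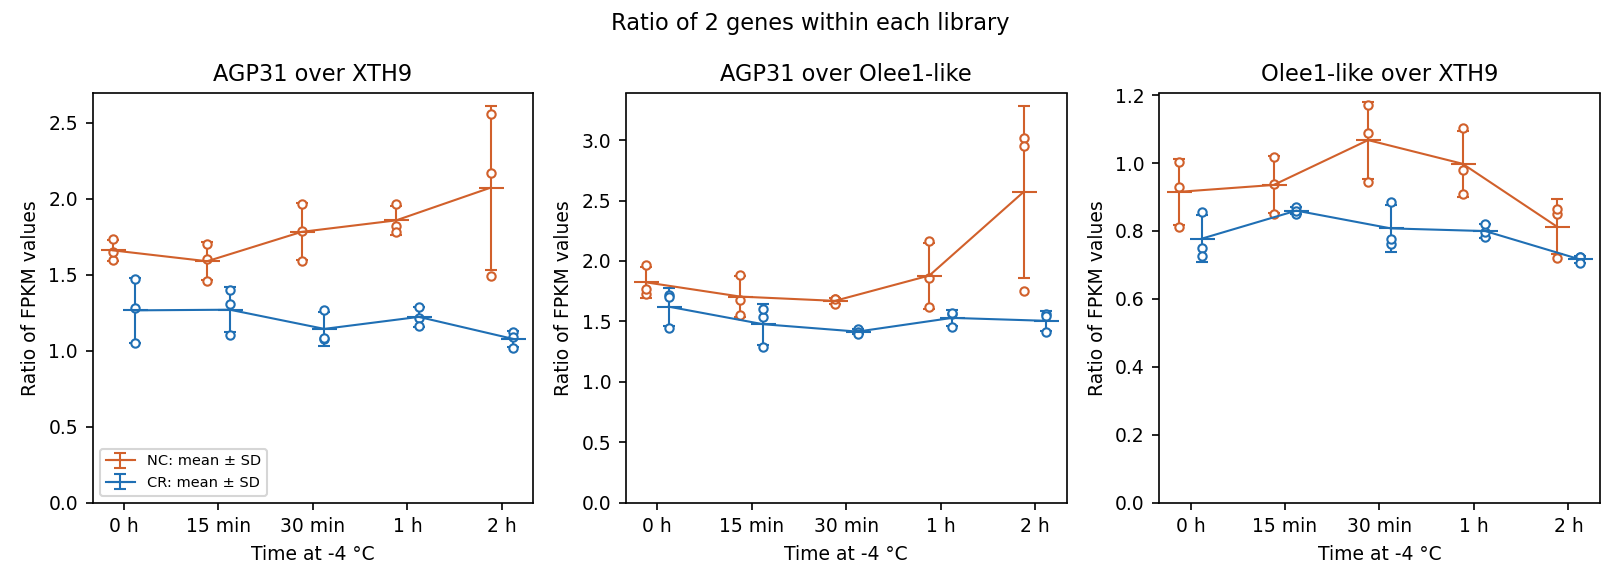
Ratio of the FPKM of 2 genes within each library (vertical axes, from 0) against time at -4 °C, with circles for libraries and bars for mean ± SD of 3, NC in orange and CR in blue. AGP31 over XTH9 was at least 1.46 in NC and at most 1.47 in CR, without overlap at any single time, and AGP31 over the Olee1-like gene reached 3.01 in NC at 2 h.

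The order of the 10 groups differed by gene. For XTH9 the 5 CR groups came first (0 h, 2 h, 1 h, 15 min, 30 min) and the 5 NC groups followed (15 min, 0 h, 1 h, 30 min, 2 h). Among neighbours in this order, CR 2 h and CR 1 h did not overlap, nor did NC 1 h and NC 30 min, and the other neighbours did. For AGP31, CR 0 h came first, then the 5 NC groups (1 h, 0 h, 15 min, 2 h, 30 min) and the other CR groups (15 min, 2 h, 1 h, 30 min), and CR 1 h and CR 30 min were the neighbours without overlap. For the Olee1-like gene the clones were mixed, from CR 0 h and CR 15 min at the top to NC 0 h and NC 2 h at the bottom. This last pair did not overlap, as in 46.9% of all genes. For the other pairs without overlap the share of all genes was not computed. All these pairs were set by sorting the same means, so the gaps are given as a description.

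Likeness of expression was measured over the 30 libraries as the root mean square difference between log2 profiles, each centred on its own mean, and is given as a description. The profile of XTH9 was nearest to those of the ribosomal proteins S7 (0.112) and S3-1 (0.119) of the small subunit and P0 of the large one (0.119), against a median of 0.204 over all genes. AGP31 was nearest to 3 enzymes of central carbon metabolism, the cytosolic glyceraldehyde-3-phosphate dehydrogenase GAPC2 (0.167), a malate dehydrogenase (0.183) and the cytoplasmic fructose-bisphosphate aldolase 1 (0.192), against a median of 0.383. The Olee1-like gene was nearest to the ribosomal protein S4 of the small subunit (0.103), the cytosolic L-ascorbate peroxidase (0.103), which removes hydrogen peroxide, and the aquaporin PIP1-2 (0.105), a plasma membrane water channel, against a median of 0.231. Among the members the profiles of XTH9 and the Olee1-like gene differed by 0.192, those of AGP31 and the Olee1-like gene by 0.270, and those of AGP31 and XTH9 by 0.340. The median distance of AGP31 from other genes was thus the largest of the 3.

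A list of other secreted proteins had 5 members. In NC at 2 h, 1 of the 5 rose and 3 fell, where 4.9% of all genes rose and 62.9% fell, with a median change of -0.47 beside -0.39 over all genes. The non-specific lipid-transfer protein 1, a small secreted lipid carrier, rose by 0.63 (limma adjusted p = 0.00364). The aspartyl protease AED3 (-0.58, adjusted p = 0.000313), the thaumatin-like protein (-0.47, adjusted p = 0.00509) and the early nodulin-like protein 3 (-0.74, adjusted p = 0.000376) fell, and the defensin-like protein 2 had a change of -0.23 (adjusted p = 0.189). Averaged over the times 4 of the 5 were higher in CR, where 81.8% of all genes were, and AED3 was lower, with -0.94 (adjusted p = 8.11e-15, 6.99% of all genes lower). Relative to the median, AED3 was lower in CR (-1.32 on the log2 scale) and the early nodulin-like protein 3 was higher by 0.17, where 28.0% of all genes were lower and 41.3% higher, and the other 3 did not pass.

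Markers of green tissue, whose place in the flower the labels do not give, moved in part with these results. Of 8 green tissue markers (light-harvesting, photosystem and related proteins), 6 fell in NC at 2 h, with a median of -0.47 and 62.9% of all genes lower, and their summed level went from 10015 to 12148 FPKM at 0 h to 5928 to 8433 at 2 h. Relative to the library median 2 of the 8 were lower and 1 higher there, against 26.6% and 14.7% of all genes. In CR 6 of the 8 fell at 15 min, where 60.1% of all genes did, and 1 of the 8 was relatively lower, against 17.5%. Their sum went from 10479 to 16306 FPKM at 0 h to 8357 to 10289, and was 12186 to 12604 at 2 h. Between the clones 6 of the 8 were higher in CR on average as deposited (81.8% of all genes) and 8 of the 8 at 2 h (84.6%), while 5 of the 8 were lower in CR on average relative to the median (28.0%), the side on which AGP31 and the Olee1-like gene also lay. In NC the sum was also low at 15 min, with 6122 to 10072 FPKM. There 2 of the 8 were called lower than at 0 h, where 1.4% of all genes were. Relative to the library median 5 of the 8 were lower, against 5.59% of all genes. Of the 3 wall genes 0 were called at that time on either scale. The list of pollen and anther markers held the Olee1-like gene alone, so it could not be set beside another pollen marker. The part of the tissue mix in these results was not tested.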

How the data were processed

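The authors deposited FPKM values for 30 RNA-seq libraries, 1 column each. The submitters' processing notes name HISAT2, Picard, SAMtools 0.1.18 and GATK, without saying what each did. The sources used here do not give how reads were counted, with or without strand, or the genome build. One incomplete last entry was left out, which left 143 genes. FPKM times gene length was a whole multiple of 1 step in each library for 4290 of 4290 values (tolerance 1e-06), which gave the reads: 1731103 to 3544827 per library in this table, 9.75% to 20.5% of the divisor.

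Log2(FPKM + 1) was fitted with limma 3.58.1 (R 4.3.3, mean-variance trend, 1 mean per group, 28.1 moderated degrees of freedom). Fold changes of low genes are understated on this scale. Two-sided p-values got a Benjamini-Hochberg adjustment over 143 genes, with a threshold of 0.05. A filter (3 or more libraries at 1 FPKM or above) removed 0 genes. Relative values subtract the library's median of log2(FPKM + 1), and percentages use the median FPKM. Alternatives were a pseudocount of 0.1, no filter, other centring, removal of a length trend, voom on the recovered reads, a replicate block, the compared groups alone and leaving out libraries. The test code was run on simulated data with equal, independent noise and no shift of whole libraries. That run does not bear on the shifts and unequal spread seen here. Named genes are the members, the 3 named genes nearest in profile to each, and the secreted protein list, from which the cytosolic ascorbate peroxidase was dropped by hand. The members and the gene lists were chosen with earlier results of these data known.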

Additional observations from a re-analysis of the deposited data

Results flagged for a closer look

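The time courses of XTH9 and of the Olee1-like gene differed between CR and NC by the limma F test of the clone by time term, with F values of 4.13 (adjusted p = 0.0146) for XTH9 and 4.41 (adjusted p = 0.0121) for the Olee1-like gene. The same test called 78.3% of all genes. The call of XTH9 was lost without NC 2 h replicate 3 (adjusted p = 0.0648) and that of the Olee1-like gene without NC 2 h replicate 2 (adjusted p = 0.0521). As deposited, the change from 0 h differed between clones past the threshold at no single time. At 2 h the difference of the changes, CR minus NC, was 0.30 for XTH9 (adjusted p = 0.142) and 0.36 for the Olee1-like gene (adjusted p = 0.117), where 16.8% of all genes were called. Without the libraries CR 0 h replicate 1 and NC 2 h replicate 1, chosen after seeing the data, these differences were 0.46 (adjusted p = 0.00698) and 0.63 (adjusted p = 0.000534). Both genes had the highest value of the group in each of these libraries. Leaving the libraries out therefore had to raise the differences, and no conclusion is drawn from the gain. The share of all genes called in that fit is not given here. Relative to the library median the F values were 1.12 (adjusted p = 0.411) and 2.61 (adjusted p = 0.0987), and the Olee1-like gene passed at 15 min (0.19, adjusted p = 0.0311). With the median taken outside the ribosomal genes it passed at 2 h (0.28, adjusted p = 0.041). Groups of 3 libraries were not tested for outlying values.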

How the results depend on the processing

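The counts below are of the 3 genes called in a comparison. Voom changed none of them. Neither did a fit without the filter, which had removed 0 genes, so that fit could not differ. A pseudocount of 0.1 changed none either, and it could hardly matter with gene means of about 594 FPKM or more. With each library centred on its median the count became 1 instead of 2 for NC 2 h against 0 h and against 1 h and for the F test in NC, 0 instead of 1 for CR 30 min, 2 instead of 1 for CR against NC at 0 h and 1 h, 3 instead of 1 at 30 min, 2 instead of 3 on average, 1 instead of 0 for CR 2 h against 15 min, clone by time at 15 min and the F test in CR, and 0 instead of 2 for the F test of clone by time. Values past the test on either scale that changed sign were XTH9 (0.11) and the Olee1-like gene (0.26) in CR at 15 min, CR against NC at 0 h for AGP31 (-0.43), XTH9 (-0.029) and the Olee1-like gene (-0.26), the Olee1-like gene in the same contrast at 30 min (-0.19), 1 h (-0.24), 2 h (-0.12) and on average (-0.18), XTH9 in NC from 1 h to 2 h (0.094) and the Olee1-like gene for clone by time at 15 min (0.19). Several values past the test on neither scale also changed sign. Centred outside the ribosomal genes, the count was 1 for NC 30 min (from 0), NC 2 h against 0 h and 1 h (from 2), CR 2 h against 15 min and clone by time at 2 h (from 0), and 0 for CR 30 min and CR against NC at 0 h (from 1) and the F test of clone by time (from 2), with 3 for CR against NC at 2 h (from 2) and 2 on average (from 3). Of the values past the test, XTH9 (0.065) and the Olee1-like gene (0.21) in CR at 15 min and the Olee1-like clone average (-0.028) changed sign. Without the length trend the count was 2 for CR 15 min and CR 30 min (from 1), 1 for NC 2 h against 1 h and the F test in NC (from 2), 1 for clone by time at 15 min and the F test in CR (from 0), and 2 for the clone average (from 3). With the compared groups alone, which leaves fewer libraries, it was 1 for NC 2 h against 0 h and 1 h and the F test in NC (from 2), 0 for CR 15 min and 30 min (from 1), 2 for CR against NC at 1 h (from 1) and 1 for CR 2 h against 15 min (from 0), and gave no value for the clone average and the clone by time F test, which use all groups. Without CR 0 h replicate 1 and NC 2 h replicate 1 together, chosen after seeing the data, it was 0 for CR 15 min and 30 min (from 1), 2 for CR against NC at 1 h (from 1), 3 at 2 h (from 2) and 2 for clone by time at 2 h (from 0).

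Leaving out 1 library at a time gave counts of 0 to 2 for CR 1 h, 0 to 1 for CR 15 min, 0 to 3 for CR 30 min, 1 to 2 for CR against NC at 0 h, 0 to 1 at 1 h, 2 to 3 on average, 1 to 2 for NC 2 h against 0 h and against 1 h, 1 to 2 for the F tests in NC and of clone by time, 0 to 1 for the F test in CR, 0 to 1 for clone by time at 15 min and 0 to 2 at 2 h. Same-numbered libraries deviated together, with every correlation over 0.1, in 6 of 45 pairs of groups. Of 135 single correlations, 59 were over 0.1. The main fit used no pairing, and this rule cannot show that the samples were unpaired. A replicate block gave 2 calls instead of 1 for CR against NC at 0 h (Olee1-like gene, adjusted p = 0.039) and changed no other count. The cause of these changes was not tested.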
